A study of Mus musculus with 12 samples.

Results

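The interferon regulatory factor (IRF) genes measured here were Irf1, Irf2, Irf3, Irf4, Irf5, Irf7, Irf8 and Irf9. Their peaks were the accessible regions that overlapped a gene body of the GENCODE annotation (GRCm38) extended by 10 kb on either side. The rule found 30 of the 91354 peaks in the BGI peak set and 33 of the 87027 peaks in the Illumina peak set, each 502 bp wide, and all of them were tested. OMNI-ATAC-seq, in which the Tn5 transposase cuts and tags open chromatin, was performed on embryonic fibroblasts (MEFs) and embryonic stem cells (mESCs) of the mouse, both of C57/Bl6 background and with no treatment or allele named in the labels. MEFs were sorted as THY1+ cells and mESCs as THY1-/SSEA1+/EPCAM+ cells, so Thy1, Epcam and Fut4, which makes the SSEA1 epitope, are no findings between them. The 3 MEF libraries, numbered 1, 2 and 4, and the 3 mESC libraries, numbered 1, 3 and 5, were each read on BGI's DNBSEQ-G400 and on Illumina's HiSeqX10, giving 12 samples of 6 libraries. The Illumina values are therefore a second reading of the same libraries and not further replicates. The age of the embryos and the sex and passage of the cells were not given in the sources used here.

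IRF proteins share a DNA-binding domain that reads GAAA repeats, the core of the interferon-stimulated response element. IRF1 is an activator induced by interferon gamma, and IRF2 binds the same sites and often opposes it. IRF3 and IRF7 lie latent until sensors of viral nucleic acid have them phosphorylated, after which they switch on the type I interferon genes, and IRF5 acts below the Toll-like receptors. IRF4 and IRF8 are best known from blood cells, where they bind composite sites with ETS or AP-1 proteins, and IRF9 is the DNA-binding subunit of the complex that answers type I interferon. Pluripotent stem cells are known to make little type I interferon after infection, whereas fibroblasts make it readily.

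Reads in peaks numbered 20.1 to 21.7 M per MEF sample and 15.9 to 17.0 M per mESC sample. Values are counts per M reads in peaks (CPM), given in the order MEF 1, 2 and 4 and then mESC 1, 3 and 5, with mean ± SD over n = 3. All peaks of the BGI and Illumina sets had the same width, so levels of different genes do not differ through width. Their order still changed with the platform, as given below, so it is a description. In the MEF and mESC peak sets, used to compare platforms, IRF peaks were 502 to 746 bp wide. Accessibility is not transcription, and in bulk samples fewer cells with an open site cannot be told apart from a less open site in every cell. The promoters of the 8 fibroblast markers summed to 254 to 288 CPM in MEFs and 77.7 to 86.5 CPM in mESCs, and those of the 8 embryonic stem cell markers to 37.4 to 38.7 and 217 to 259 CPM. Of those 8 stem cell markers, 7 were higher in mESCs and Fut4 was lower (−0.67 on the log2 scale).

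The stretches below are shown because the peaks that hold them changed between the cell types or stand at an IRF gene's start. They are plus-strand sequence of the RefSeq copy of the GRCm38 build, with capitals marking matches to a motif. The first 3 are from the promoters of Irf1 and Irf8 and from the peak over the start of Irf2. Capitals there mark TTCNNNGAA, the gamma-activated site, and at Irf2 also GGAANNGAAA, an ETS and IRF composite, which runs into GAAANNGAAA, a paired GAAA repeat, by sharing its last GAAA.
Irf1 promoter, chr11:53769864-53769992: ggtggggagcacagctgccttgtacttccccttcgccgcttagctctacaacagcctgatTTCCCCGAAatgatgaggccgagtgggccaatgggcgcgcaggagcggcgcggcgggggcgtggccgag
Irf2 start-site peak, chr8:46739444-46739573: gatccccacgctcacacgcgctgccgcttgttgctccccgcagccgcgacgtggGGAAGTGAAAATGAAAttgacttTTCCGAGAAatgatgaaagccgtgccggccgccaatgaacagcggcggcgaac
Irf8 promoter, chr8:120736137-120736263: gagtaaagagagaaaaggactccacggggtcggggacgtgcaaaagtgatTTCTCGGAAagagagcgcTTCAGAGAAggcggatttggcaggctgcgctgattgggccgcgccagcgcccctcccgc

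The next 3 are from peaks inside Irf2 that were nearly closed in mESCs, at 41.5, 71.8 and 79.0 kb from its start. Capitals mark TGANTCA, a pattern that takes in the AP-1 site, TGACTCA or TGAGTCA, but allows any middle base. The farther intron peak holds TGAATCA, which is not that site.
Irf2 intron, nearer peak, chr8:46781183-46781289: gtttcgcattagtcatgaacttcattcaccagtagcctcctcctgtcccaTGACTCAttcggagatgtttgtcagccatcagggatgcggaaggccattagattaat
Irf2 intron, farther peak, chr8:46811505-46811611: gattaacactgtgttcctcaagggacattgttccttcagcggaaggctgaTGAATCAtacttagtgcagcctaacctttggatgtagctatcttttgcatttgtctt
Irf2 coding exon, chr8:46818752-46818858: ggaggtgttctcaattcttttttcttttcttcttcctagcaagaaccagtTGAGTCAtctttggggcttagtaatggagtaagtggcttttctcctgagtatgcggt

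The last pair is from peaks about Irf8 that changed in opposite directions. The upstream peak was listed by the authors for mESCs only and the internal peak for MEFs only, so these directions are not an independent result. Capitals mark TGANTCA and, on the minus strand, GAAANNGAAA in the upstream site, and GAAANNGAAA on the plus strand in the internal site.
Irf8 upstream site, chr8:120732037-120732146: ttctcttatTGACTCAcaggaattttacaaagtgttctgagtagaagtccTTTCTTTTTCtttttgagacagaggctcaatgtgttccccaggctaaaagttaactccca
Irf8 internal site, chr8:120752288-120752397: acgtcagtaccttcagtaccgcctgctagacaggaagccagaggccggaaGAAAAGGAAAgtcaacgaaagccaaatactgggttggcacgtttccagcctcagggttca

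More IRF peaks were lower than higher in mESCs. By edgeR's quasi-likelihood test with Benjamini-Hochberg adjustment over all peaks, 25 of the 30 BGI peaks (83.3%) were called at an adjusted p under 0.05, against 84.1% of all BGI peaks, so the share called was that of the background. Of the 25, 5 were higher and 20 lower in mESCs, where all BGI peaks divided into 40.9% higher and 43.2% lower. In the Illumina set 28 of 33 IRF peaks (84.8%) were called, 8 higher and 20 lower, against 84.5% of all peaks (42.1% higher and 42.4% lower). The median log2 change was −0.53 over the IRF peaks and −0.08 over all peaks on BGI, and −0.50 and −0.03 on Illumina. At library sizes set to the down-sampled depth, which moved the median of all peaks by 0.14 on BGI and 0.13 on Illumina, 20 BGI peaks were called (6 higher, 14 lower) and 25 Illumina peaks (9 higher, 16 lower). Shares over all peaks were not computed at those sizes, so these counts cannot be read against a background. MEF and mESC values did not overlap at 23 IRF peaks on BGI and 27 on Illumina, against 85.1% and 85.6% of all peaks.

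The 8 peaks that stood for the IRF promoters, taken as the peak with the highest mean within 1 kb of a start site of the gene, changed by between −0.79 and 0.59 on the log2 scale on BGI. Of the 9 BGI peaks away from any promoter, with changes between −4.47 and 2.84, 8 were called (2 higher, 6 lower, background 89.8%, with 45.5% of all such peaks higher). On Illumina 11 of 11 such peaks were called (4 higher, 7 lower, background 90.0%, with 47.6% of all such peaks higher). All promoter peaks of the IRF genes together, which changed by between −2.55 and 0.59 on BGI and −2.32 and 1.48 on Illumina, numbered 17 on BGI, of which 13 were called (2 higher, 11 lower, background 72.3%, with 31.3% of all promoter peaks higher), and 18 on Illumina, of which 14 were called (3 higher, 11 lower, background 74.0%, with 31.6% of all promoter peaks higher). Changes of at least 1 on the log2 scale were called at 13 BGI peaks, 3 higher and 10 lower (background 63.1%, with 33.0% of all peaks higher and 30.1% lower). They were called at 15 Illumina peaks, 5 higher and 10 lower (background 61.9%, with 33.6% of all peaks higher and 28.2% lower). Of the 30 BGI peaks, 11 were listed by the authors for MEFs only, 5 for mESCs only and 14 for both. All 11 of the first kind were lower in mESCs, and of the second 4 were higher and 1 was not called. Of the 33 Illumina peaks, 11 were listed for MEFs only, 8 for mESCs only and 14 for both. Those 11 were all lower in mESCs, and of the 8, 6 were higher and 2 were not called. A peak listed for one cell type entered the set through the cells in which it is open, so its direction is not an independent result. All 6 lower BGI peaks away from promoters were listed for MEFs only.

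**Figure D1:**
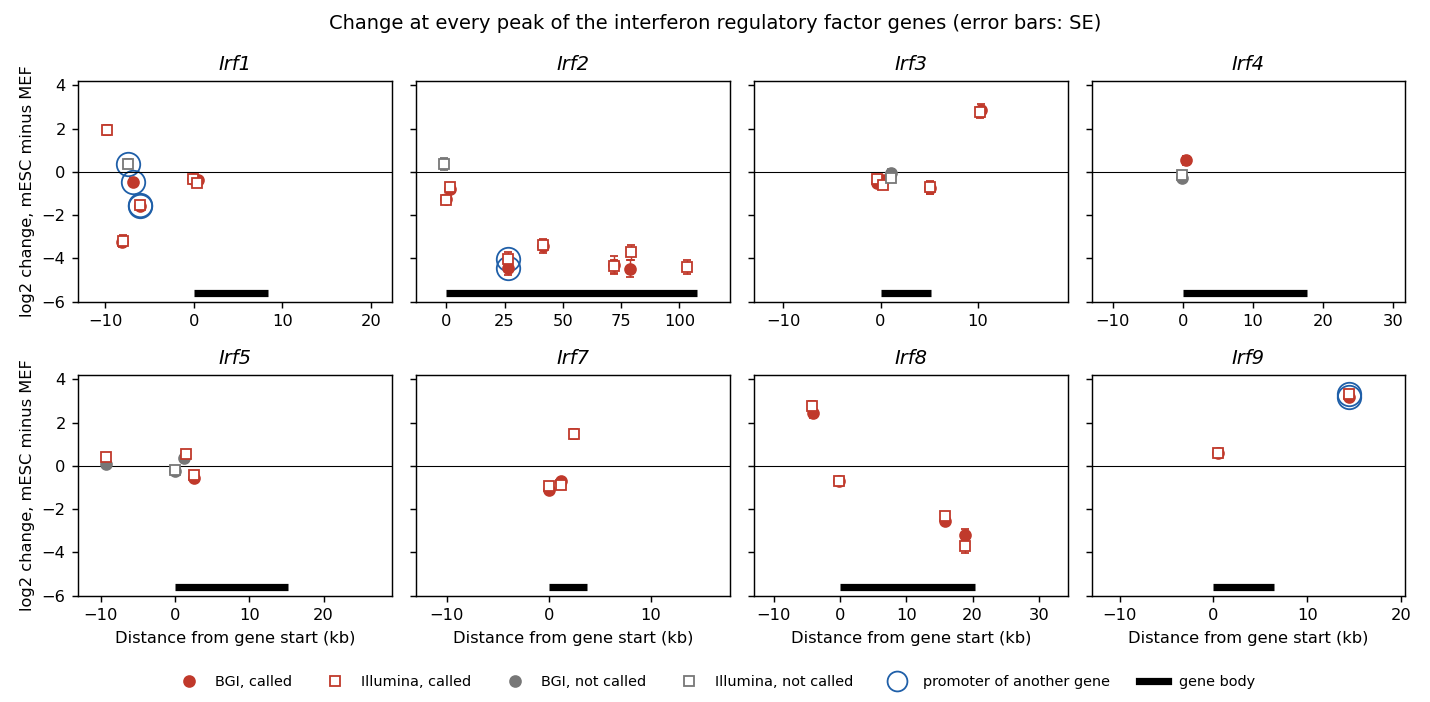
Log2 change of each IRF peak (y axis, mESC minus MEF, error bars SE) against the distance of its centre from the gene start in kb (x axis), 1 panel per gene, circles for BGI and open squares for Illumina, red where the adjusted p was under 0.05. On BGI the Irf2 peaks from 26.5 kb on lie between −3.43 and −4.47, while the promoter peaks of Irf3, Irf4 and Irf5 lie between −0.56 and 0.54.

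Irf1 (chr11:53770014-53778374, plus strand), the interferon gamma-induced activator, changed little at its promoter and far more upstream. Its main promoter peak, chr11:53769658-53770159, held 29.96, 24.8 and 31.5 CPM in MEFs and 23.4, 25.01 and 24.3 CPM in mESCs on BGI. MEF library 2 lay among the mESC libraries, so the groups overlapped. The means were 28.7 ± 3.54 and 24.2 ± 0.813 CPM, a log2 change of −0.31 (SE 0.11, adjusted p = 0.0137 by edgeR). This call was lost without MEF library 1 (−0.23, adjusted p = 0.116) or MEF library 4 (−0.26, adjusted p = 0.0518). The Illumina change was −0.31 (adjusted p = 0.00982). At the down-sampled library sizes the call was lost on both platforms (−0.17, adjusted p = 0.207, and −0.18, adjusted p = 0.136). A peak 0.4 kb into the gene changed by −0.37 on BGI (adjusted p = 0.0363). On Illumina it changed by −0.50 (adjusted p = 0.000298). The former call was lost without MEF library 1, mESC library 1 or mESC library 5 (adjusted p = 0.0846 to 0.272), with RLE size factors (adjusted p = 0.0576), with a mean count of at least 50 (adjusted p = 0.0517) and at the down-sampled sizes (−0.23, adjusted p = 0.211).

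Upstream of Irf1, an intergenic peak at −8.0 kb (chr11:53761732-53762233) held 20.2, 21.02 and 14.2 CPM in MEFs and 2.84, 1.48 and 1.86 CPM in mESCs. Every MEF library was above every mESC library, with a log2 change of −3.24 (SE 0.23, adjusted p = 6.39e-10), or 9.45-fold more in MEFs. The peak at −6.1 kb, at the promoter of the microRNA gene Mir7671, was the most accessible of the Irf1 window in MEFs. It held 39.01, 42.1 and 48.7 CPM in MEFs and 16.4, 15.7 and 13.4 CPM in mESCs (−1.58, SE 0.11, adjusted p = 6.89e-10). Of the other Mir7671 peaks, that at −6.8 kb, in the BGI set alone, fell by 0.46 (adjusted p = 0.0307), a call lost without MEF library 2, mESC library 1 or mESC library 3 (adjusted p = 0.0678 to 0.137) or at the down-sampled sizes (−0.32, adjusted p = 0.124). That at −7.4 kb, in the Illumina set alone, did not pass (0.38, adjusted p = 0.122) unless mESC library 5 was left out (0.55, adjusted p = 0.0428) or the down-sampled sizes were used (0.50, adjusted p = 0.0436). One peak of the window went the other way, at −9.8 kb in the Illumina set alone, with 3.31, 1.94 and 3.50 CPM in MEFs and 11.3, 12.2 and 10.98 CPM in mESCs. Its log2 change was 1.93 (SE 0.22, adjusted p = 1.86e-07). It was listed for mESCs only, and the −8.0 kb peak, less than 2 kb away, for MEFs only. Their opposite directions are therefore not an independent result.

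Irf2 (chr8:46739732-46847458, plus strand), the counterpart of IRF1 at shared sites, had the largest changes of the family. The peak over its start, chr8:46739376-46739877, which also covers the start of the noncoding gene Gm16675, held 24.97, 19.98 and 27.6 CPM in MEFs and 9.33, 12.5 and 10.3 CPM in mESCs. The groups were separate, at 24.2 ± 3.86 and 10.7 ± 1.65 CPM (−1.24, SE 0.15, adjusted p = 4.58e-07). This is the peak with the composite and paired GAAA letters printed above. Its main promoter peak, 1.5 kb into the gene (chr8:46740990-46741491), fell from 22.5 ± 0.616 to 13.6 ± 1.86 CPM, a log2 change of −0.79 on BGI (SE 0.13, adjusted p = 1.77e-05) and −0.71 on Illumina (adjusted p = 9.88e-06).

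Inside Irf2, 4 BGI peaks were nearly closed in mESCs. The intronic peak at 41.5 kb (chr8:46780979-46781480) held 12.002, 7.95 and 7.87 CPM in MEFs and 1.32, 0.355 and 1.06 CPM in mESCs (−3.43, SE 0.34, adjusted p = 3.28e-08). The intronic peak at 71.8 kb (chr8:46811236-46811737) held 16.7, 12.8 and 9.91 CPM in MEFs and 0.126, 1.42 and 0.497 CPM in mESCs (−4.31, SE 0.40, adjusted p = 1.4e-08). At both, the lowest MEF library was several times the highest mESC library. The peak at 79.0 kb (chr8:46818507-46819008), which spans a coding exon, held 8.72, 9.24 and 5.38 CPM in MEFs and 0.441, 0.532 and 0.124 CPM in mESCs (−4.47, SE 0.39, adjusted p = 7.98e-09), the most negative change among the BGI peaks of the family. A peak at 26.5 kb, at the start of Gm45479, a gene model inside Irf2, held 15.7, 13.7 and 11.6 CPM in MEFs and 1.01, 0.118 and 0.870 CPM in mESCs (−4.45, SE 0.34, adjusted p = 1.44e-09). The mESC values of these 4 peaks rest on 2 to 24 reads per library, so their ratios among mESC libraries mean little. An intronic peak at 103.4 kb, in the Illumina set alone, fell from 7.04 ± 0.608 to 0.348 ± 0.134 CPM (−4.39, SE 0.33, adjusted p = 9.58e-10).

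**Figure D2:**
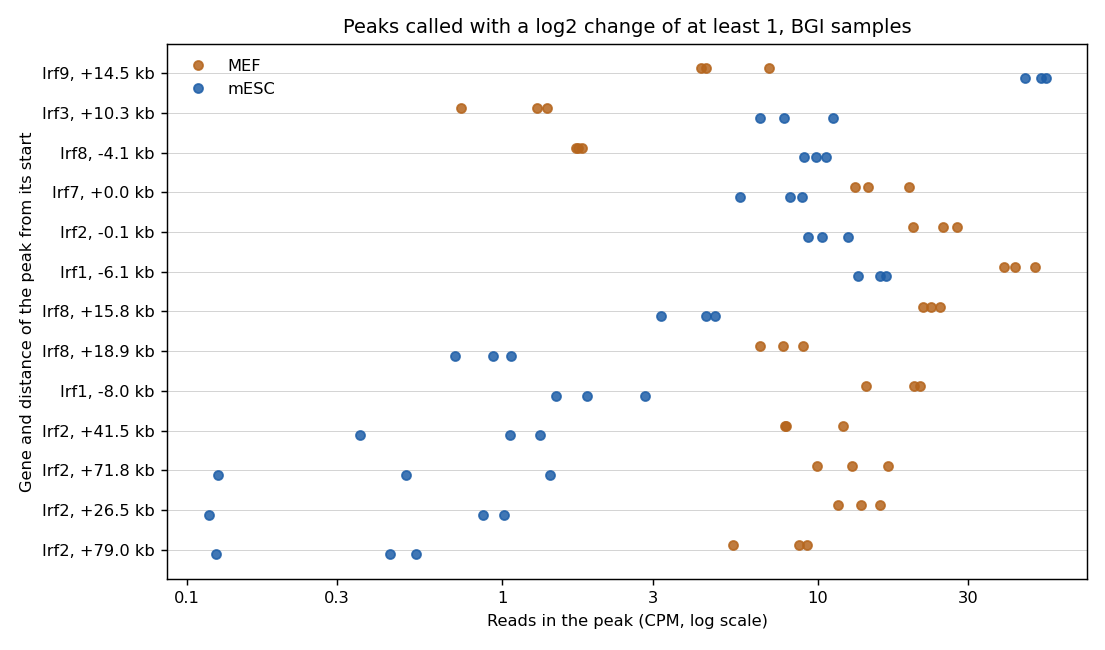
Reads in the 13 IRF peaks called with a log2 change of at least 1 on BGI (x axis, CPM on a log scale, 1 point per library, brown for MEFs and blue for mESCs), each named by its gene and the distance from the gene start. MEF and mESC points are separate in every row, and the 3 rows at the top, by Irf9, Irf3 and Irf8, are those higher in mESCs.

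Irf3, Irf7 and Irf5 encode the factors activated by pathogen sensors. Irf3 (chr7:44997648-45002848, plus strand) shares a bidirectional promoter with Bcl2l12, so its 3 promoter peaks cannot be given to Irf3 alone. The main one, chr7:44997061-44997562, held 32.6, 32.8 and 30.1 CPM in MEFs and 23.9, 25.3 and 20.9 CPM in mESCs. MEFs were higher in every library, at 31.8 ± 1.49 against 23.4 ± 2.27 CPM (−0.51, SE 0.11, adjusted p = 0.000272, and −0.35, adjusted p = 0.00175, on Illumina). The Illumina call was lost at the down-sampled library sizes (−0.23, adjusted p = 0.0501). The peak at 0.3 kb changed by −0.39 on BGI (adjusted p = 0.0207), a call lost without MEF library 4 (−0.32, adjusted p = 0.064), mESC library 1 (−0.38, adjusted p = 0.0508) or mESC library 3 (−0.31, adjusted p = 0.0989), and at the down-sampled sizes (−0.25, adjusted p = 0.134). On Illumina it changed by −0.61 (SE 0.14, adjusted p = 0.000613). The peak at 1.1 kb did not pass the test (−0.05, adjusted p = 0.766). A peak at 5.0 kb in the last exon was called lower (−0.75, adjusted p = 0.0244) with groups that overlapped, and without any one of MEF library 1, MEF library 2, mESC library 3 or mESC library 5 the adjusted p was 0.0588 to 0.181, as at the down-sampled sizes it was 0.0614.

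Beyond the end of Irf3, a peak at 10.3 kb in a coding exon of the neighbour Scaf1 (chr7:45007743-45008244) was higher in mESCs. It held 0.739, 1.29 and 1.39 CPM in MEFs and 11.2, 6.56 and 7.83 CPM in mESCs, with no overlap (2.84, SE 0.29, adjusted p = 6.99e-08). It is a peak of the extended window and not of the Irf3 gene.

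Irf7 (chr7:141262706-141266481, minus strand) was lower in mESCs at both of its BGI peaks. The peak at its start, chr7:141266228-141266729, held 13.1, 14.4 and 19.4 CPM in MEFs and 8.89, 5.68 and 8.14 CPM in mESCs (−1.11, SE 0.18, adjusted p = 2.23e-05). Its main promoter peak, 1.2 kb into the gene (chr7:141265004-141265505), held 16.2, 15.3 and 15.6 CPM in MEFs and 10.97, 9.93 and 9.57 CPM in mESCs (−0.70, SE 0.14, adjusted p = 0.000143). The groups were separate at both, and on Illumina the changes were −0.92 (adjusted p = 2.72e-05) and −0.89 (adjusted p = 1.97e-05). Another peak at 2.5 kb, in the Illumina set alone, was higher in mESCs, with 3.03, 3.63 and 2.51 CPM in MEFs and 10.2, 6.96 and 9.37 CPM in mESCs (1.48, SE 0.22, adjusted p = 6.2e-06). This peak was listed for mESCs only, so its direction is not an independent result.

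Irf5 (chr6:29526625-29541871, plus strand) showed small differences. Its main promoter peak, chr6:29526445-29526946, held 14.8, 12.7 and 16.03 CPM in MEFs and 14.1, 12.6 and 12.5 CPM in mESCs. The groups overlapped and the change did not pass the test on BGI (−0.22, SE 0.14, adjusted p = 0.153) or on Illumina (−0.19, adjusted p = 0.216). Of the other peaks, that at 2.6 kb was lower in mESCs on both platforms (−0.56, adjusted p = 0.00943, and −0.43, adjusted p = 0.0307). That call was lost at the down-sampled library sizes on both platforms (−0.42, adjusted p = 0.0511, and −0.30, adjusted p = 0.121). It was also lost on BGI without MEF library 1 (−0.39, adjusted p = 0.0861) and on Illumina without any one of MEF library 1, MEF library 2 or mESC library 5 (adjusted p = 0.0578 to 0.101). The peaks at −9.3 kb and near 1.3 kb passed in the Illumina set (0.41, adjusted p = 0.0161, and 0.55, adjusted p = 0.00904) and not in the BGI set (0.10, adjusted p = 0.586, and 0.36, adjusted p = 0.0937). The −9.3 kb call was lost without mESC library 5 (0.37, adjusted p = 0.0644), and the BGI peak at 1.3 kb was called without MEF library 4 (0.48, adjusted p = 0.0296), by DESeq2 (0.40, adjusted p = 0.049) and at the down-sampled sizes (0.50, adjusted p = 0.0243).

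Irf4 and Irf8 encode the members best known from lymphocytes and macrophages. Irf4 (chr13:30749226-30766976, plus strand) had the least accessible main promoter peak of the family in MEFs, chr13:30748909-30749410. It held 10.5, 10.4 and 8.61 CPM in MEFs and 7.82, 8.93 and 8.39 CPM in mESCs. The groups overlapped and the change was not called (−0.30, SE 0.17, adjusted p = 0.102), although without MEF library 4 it was (−0.40, adjusted p = 0.0305). Another peak 0.5 kb into the gene, in the BGI set alone, held 4.25, 4.87 and 4.78 CPM in MEFs and 7.75, 6.50 and 6.90 CPM in mESCs (0.54, SE 0.20, adjusted p = 0.0181). All mESC libraries were above all MEF libraries there, but without mESC library 1 the adjusted p was 0.0723, and the Illumina samples on the same peak gave 0.31 (adjusted p = 0.161).

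Irf8 (chr8:120736358-120756694, plus strand) was lower in mESCs at its promoter and at both peaks inside it, and a peak before its start was higher. Its main promoter peak, chr8:120736016-120736517, held 16.2, 18.3 and 22.6 CPM in MEFs and 10.7, 14.4 and 12.1 CPM in mESCs, which did not overlap (−0.68, SE 0.15, adjusted p = 0.000455). At 15.8 kb, over the start of a short processed transcript near the end of the gene (chr8:120751923-120752424), MEFs held 21.6, 24.4 and 22.9 CPM and mESCs 4.41, 3.19 and 4.72 CPM. In each MEF library this internal site held more reads than the promoter peak on BGI, and in each it held fewer on Illumina. It was lower in every mESC library (−2.55, SE 0.16, adjusted p = 1.16e-10). The last-exon peak at 18.9 kb fell from 7.76 ± 1.19 to 0.904 ± 0.183 CPM (−3.18, SE 0.28, adjusted p = 8.25e-09). In contrast, the upstream peak at −4.1 kb (chr8:120731990-120732491), in an intron of the overlapping gene model Gm20388, held 1.71, 1.79 and 1.74 CPM in MEFs and 9.02, 10.6 and 9.88 CPM in mESCs. It was 5.37-fold higher in mESCs (2.43, SE 0.22, adjusted p = 1.05e-08), and on Illumina the change was 2.77.

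Irf9 (chr14:55603571-55610030, plus strand), the subunit of the complex that answers type I interferon, was the one gene of the 8 whose main promoter peak was higher in mESCs. The peak, chr14:55603825-55604326, held 29.2, 23.7 and 34.3 CPM in MEFs and 44.3, 45.8 and 46.9 CPM in mESCs. The groups were separate and the mESC libraries lay closer together, at 29.0 ± 5.27 and 45.6 ± 1.33 CPM (0.59, SE 0.11, adjusted p = 0.000106). On Illumina the log2 change was 0.62 (adjusted p = 5.59e-05). The other peak of its window, at 14.5 kb, is the promoter of Rec8, a meiotic cohesin gene, and held 4.25, 7.01 and 4.43 CPM in MEFs and 52.7, 51.1 and 45.2 CPM in mESCs (3.18, SE 0.16, adjusted p = 6.53e-12).

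**Figure D3:**
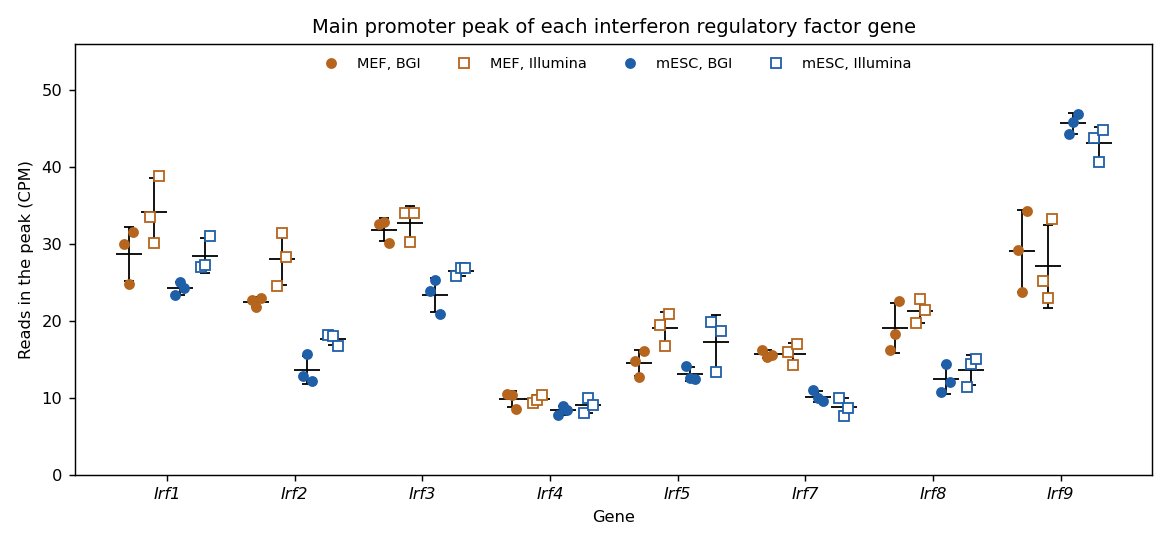
Reads in the main promoter peak of each IRF gene (y axis, CPM), 1 point per sample, filled circles for BGI and open squares for Illumina, brown for MEFs and blue for mESCs, with the mean and SD of 3 libraries in black. Irf9 is the gene whose mESC points, up to 46.9 CPM, lie above its MEF points.

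Across the 8 main promoter peaks, 6 were called on each platform, 1 higher and 5 lower, against 66.2% of the main promoter peaks of all genes on BGI and 68.4% on Illumina. Lower calls made up 43.9% and 45.6% of all main promoter peaks, and higher calls 22.4% and 22.8%. The median change was −0.41 over the IRF genes and −0.18 over all genes on BGI, and −0.33 and −0.17 on Illumina. In MEFs on BGI the order of levels was Irf3 (31.8 CPM), Irf9 (29.0), Irf1 (28.7), Irf2 (22.5), Irf8 (19.0), Irf7 (15.7), Irf5 (14.5) and Irf4 (9.84). Neighbours in this order overlapped between Irf3 and Irf9, Irf9 and Irf1, Irf2 and Irf8, and Irf7 and Irf5. In mESCs on BGI it was Irf9 (45.6 CPM), Irf1 (24.2), Irf3 (23.4), Irf2 (13.6), Irf5 (13.1), Irf8 (12.4), Irf7 (10.2) and Irf4 (8.38), with Irf9 clear of Irf1, Irf3 clear of Irf2, and Irf7 clear of Irf4. The order was different on Illumina, with Irf1 (34.1 CPM), Irf3 (32.8), Irf2 (28.1) and Irf9 (27.1) leading in MEFs, each overlapping the next, Irf5 above Irf7 in MEFs, and Irf4 above Irf7 in mESCs. On both platforms Irf9 stood at the head of the family in mESCs, and in MEFs its range overlapped those of Irf3 and Irf1.

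Counts were also summed over all peaks of each extended gene. On BGI, Irf2 fell from 90.5 ± 8.90 to 26.9 ± 3.25 CPM (−1.79, SE 0.09, adjusted p = 2.57e-13), Irf1 changed by −0.97, Irf8 by −0.96 and Irf7 by −0.86, each called. On Illumina these sums were also called, with changes of −1.55 for Irf2, −0.65 for Irf1, −0.89 for Irf8 and −0.42 for Irf7. Without peaks at promoters of other genes, the Irf1 sum changed by −0.76 on BGI and −0.43 on Illumina, and the Irf2 sum by −1.61 and −1.42. The Irf3 sum changed by −0.18 (adjusted p = 0.0384), a call lost without MEF library 1, MEF library 2, mESC library 3 or mESC library 5 (adjusted p = 0.109 to 0.146), while Irf4 (0.05, adjusted p = 0.722) and Irf5 (−0.07, adjusted p = 0.46) did not pass. Irf9 rose by 1.44 with the Rec8 promoter and by 0.59 without it. In all, 6 of 8 sums were called on each platform, 1 higher and 5 lower, against 77.3% of the sums of all protein-coding genes on BGI (38.9% higher) and 77.4% on Illumina (39.0% higher).

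The sign of the change was shared between the platforms. At least 50% of the length of 28 BGI peaks lay in an Illumina peak, and all 28 changed with the same sign. Both platforms called 23 of them, 4 higher and 19 lower, and none was called in opposite directions. The same counts were not computed over all peaks, and both platforms read the same 6 libraries. The likeness is therefore not shown to be particular to the IRF peaks. The log2 changes differed between platforms by 0.14 in the median and by 0.76 at most. When the platform difference itself was tested over all 12 samples with the library as a block, none of the 30 BGI peaks was called (background 0.386%, 4 at an unadjusted p under 0.05) and 1 of the 33 Illumina peaks was (background 0.671%). That peak lay 0.9 kb before Irf2, in the Illumina set alone. In simulated counts this fit recovered 63% of log2 changes of 1 in BGI peaks and 58.5% in Illumina peaks. Few calls therefore do not show that the platforms were alike.

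The platforms were also set directly against each other within a cell type, first without and then with the library as a block. Without the block, a fit that sets aside that the readings share libraries and so cannot show likeness by a low count, in the peak set of MEFs, which holds 26 IRF peaks, 1 was called between BGI and Illumina (background 4.06%, with 3.96% of all peaks lower on BGI), and in that of mESCs, which holds 25, 1 was called (background 3.23%). It was the same site in both, 0.4 kb into Irf1. BGI held 17.4, 13.2 and 15.5 CPM there in MEFs where Illumina held 23.7, 21.8 and 22.6 CPM (−0.59, SE 0.12, adjusted p = 0.0319). In mESCs BGI held 11.9, 13.4 and 10.7 CPM and Illumina 16.1, 15.8 and 17.2 CPM (−0.50, SE 0.12, adjusted p = 0.0462). BGI was lower in all 3 libraries of either cell type. The MEF call was lost without MEF library 1 or 2 and the mESC call without mESC library 1 or 5.

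With the library as a block, which pairs the readings of each library, 5 IRF peaks were called in MEFs (background 29.2%), 1 higher and 4 lower on BGI, where 13.9% of all peaks were higher and 15.3% lower. In mESCs 5 were called (background 21.3%), all lower, where 5.78% of all peaks were higher and 15.6% lower. Those lower on BGI in MEFs were at the promoters of Irf1 (at −0.1 and 0.4 kb), Irf2 (−0.29, adjusted p = 0.000607) and Irf5 (−0.38, adjusted p = 8.18e-05). In mESCs they were at the same promoters and at that of Irf3 (−0.26, adjusted p = 0.000555). The peak higher on BGI was the internal site of Irf8 in MEFs (0.19, adjusted p = 0.0269), a call lost when any one MEF library was left out. DESeq2 with the block called 3 of these peaks in MEFs, those of Irf1 at 0.4 kb, Irf2 and Irf5 (background 14.6%), and 1 in mESCs, that of Irf1 at 0.4 kb (background 9.25%). GC content moved with the ratio. Across the IRF peaks, Spearman's rho between GC content and the blocked log2 ratio was −0.644 over 26 peaks in MEFs and −0.701 over 25 peaks in mESCs, a description over peaks that share libraries. The promoter of Irf5, lower on BGI, had a GC content of 76.1%, that of Irf3, lower on BGI in mESCs, 53.5%, and the Irf8 site, higher on BGI in MEFs, 53.2%, where the median over all peaks of the MEF set was 51.4%. The part of GC content in the platform result was not tested.

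**Figure D4:**
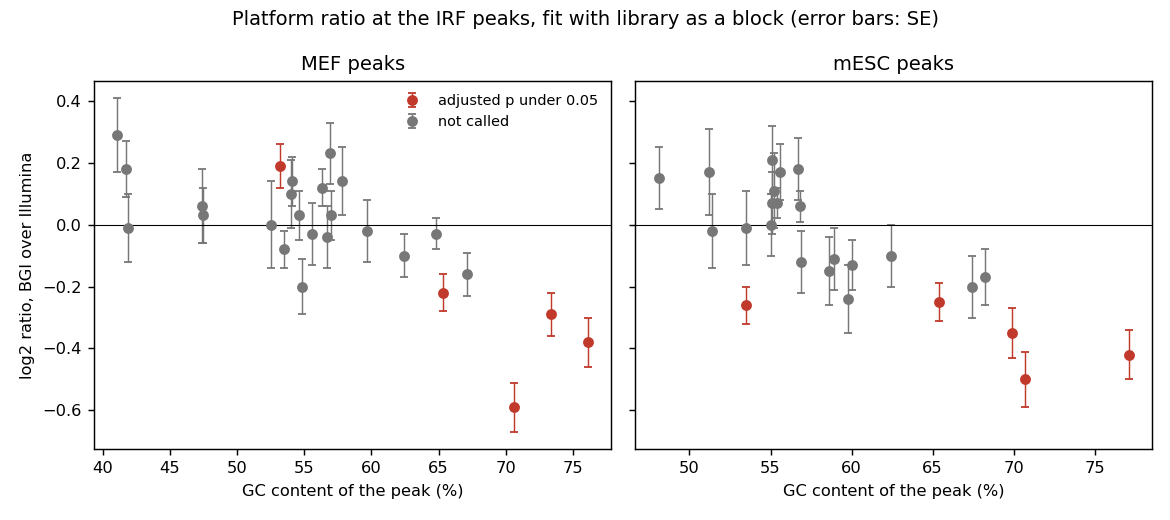
Log2 ratio of BGI over Illumina at each IRF peak (y axis, fit with library as a block, error bars SE) against GC content in percent (x axis), in the MEF peak set on the left and the mESC peak set on the right, red where the adjusted p was under 0.05. The 4 red points below 0 in MEFs and all 5 in mESCs are promoter peaks of Irf1, Irf2, Irf3 or Irf5.

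The same promoter measure was taken for the rest of the interferon pathway, grouped by role. None of the 13 genes of type I, II and III interferons had a promoter peak on either platform, where 15130 of 22028 protein-coding genes had one on BGI. Of the 20 sensing genes, 19 were found in the annotation by the symbol used, 17 of these had one, and on BGI 12 were lower in mESCs and 5 were not called (10 lower and 1 higher at the down-sampled library sizes), against 66.2% called over the main promoter peaks of all genes (43.9% lower, 22.4% higher). The median was −0.65, against −0.18 over all genes. Background shares for this and the following lists are from the main fit, and none was computed at the down-sampled library sizes. Tlr4, the receptor for bacterial lipopolysaccharide, fell from 12.1 ± 1.08 to 1.31 ± 0.219 CPM (−3.28, SE 0.22, adjusted p = 3.01e-10), with −2.47 at the different peak that stood for it on Illumina. Tmem173, which encodes the DNA-sensing adaptor STING, fell from 14.3 ± 2.08 to 3.47 ± 0.542 CPM (−2.11, SE 0.19, adjusted p = 8.83e-09). These 2 were the largest changes of the sensing list, larger than that of any main promoter peak of an IRF gene.

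Among the 16 receptor and JAK-STAT genes, which carry the interferon signal to the nucleus, 12 were lower, 2 higher and 2 not called on BGI (background 43.9% lower and 22.4% higher), with a median of −0.44 (9 lower and 3 higher at the down-sampled library sizes). Ifngr2, a chain of the interferon gamma receptor, fell from 15.1 ± 0.747 to 4.94 ± 0.474 CPM (−1.68), and the kinase gene Jak2 from 53.4 ± 2.89 to 21.2 ± 1.63 CPM (−1.40). At the different peak that stood for Ifngr2 on Illumina the change was −1.05. Ptpn2, a phosphatase that dampens JAK-STAT signals, rose from 39.5 ± 3.92 to 58.9 ± 4.45 CPM (0.51, adjusted p = 9.02e-05). The kinase gene Tyk2 rose by 0.37 (adjusted p = 0.000347).

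Of the 38 interferon-stimulated genes, 29 had a promoter peak on BGI, over 27 separate peaks, and 20 were lower, 6 higher and 3 not called against the same background of 43.9% lower and 22.4% higher (13 lower and 8 higher at the down-sampled library sizes). The nuclease gene Isg20 fell from 22.3 ± 4.14 to 3.21 ± 1.44 CPM (−2.87, adjusted p = 3.06e-09) and Ifi27 by 1.80 (adjusted p = 8.79e-07). In the other direction, Ifitm1, of a family that restricts virus entry, rose from 6.44 ± 0.883 to 24.4 ± 4.05 CPM (1.86, adjusted p = 3.83e-09). Oas2, which makes the activator of RNase L, rose from 0.636 ± 0.191 to 5.24 ± 1.11 CPM (2.98, adjusted p = 2.86e-07), and by 2.83 at the different peak that stood for it on Illumina.

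Of the 15 cofactors and partners of IRF proteins, 12 had a promoter peak, with 3 higher, 4 lower and 5 not called on BGI (background 66.2% called) and 3 higher, 7 lower and 2 not called on Illumina (background 68.4% called). Irf2bp1, which binds IRF2, rose from 30.8 ± 2.48 to 52.2 ± 1.16 CPM (0.69). Batf3, an AP-1 partner of IRF4 and IRF8, fell by 1.17 and Ets1 by 0.89. Ikzf1, a blood cell factor, rose from 4.46 ± 0.661 to 23.7 ± 3.02 CPM (2.34), and by 0.93 at the different peak that stood for it on Illumina. Of the 12 blood cell and macrophage markers, in whose lineages IRF4 and IRF8 are best known, 8 had no promoter peak on BGI, among them Ptprc, Spi1, Adgre1 and Itgam. The 4 that had one summed to 41.2 to 48.0 CPM in MEFs and 60.4 to 72.9 CPM in mESCs, with Csf1r at −2.98 and Cd68 at 2.21. The 4 of 7 endothelial markers with a promoter peak summed to 44.4 to 45.7 CPM in MEFs and 41.0 to 47.0 CPM in mESCs. The part of such cells in the values of Irf4 and Irf8 was not tested.

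**Figure D5:**
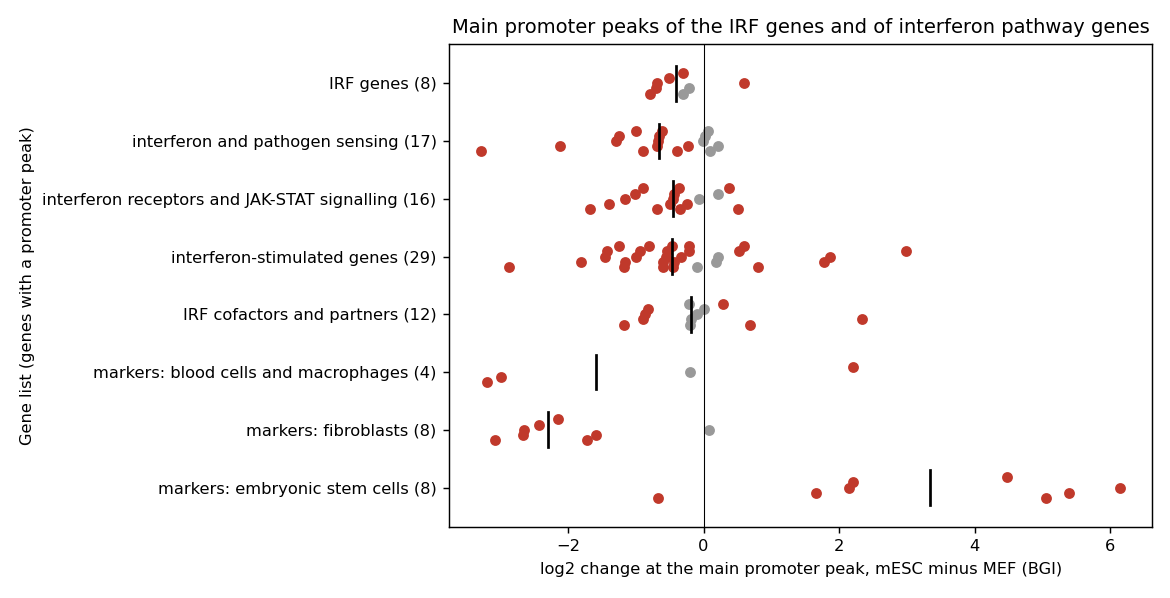
Log2 change at the main promoter peak (x axis, mESC minus MEF, BGI), 1 point per gene and 1 row per list with the number of genes that had a promoter peak, red where the adjusted p was under 0.05 and a black bar at the median. The IRF genes and the first 3 pathway lists have medians between −0.41 and −0.65, with Oas2 at 2.98 as the point farthest to the right among them.

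Motif letters were counted on both strands of the 30 BGI peaks of the IRF genes and of all BGI peaks, as a description. GAAANNGAAA was in 4 IRF peaks and in 5.35% of all peaks. Those 4 were the −6.8 kb peak of Irf1, the start-site peak of Irf2, and the upstream and internal peaks of Irf8. GGAANNGAAA, which can share a GAAA with it, was in 2 (Irf2 start site and Irf5 at 2.6 kb, 4.66% of all). TTCNNNGAA was in 5 (14.2% of all), which were the main promoter peaks of Irf1, Irf8 and Irf9, the Irf2 start-site peak and the −6.8 kb peak of Irf1. GGGNNTTTCC, an NF-kappaB site, was in 3 (2.81%), and ATGCAAAT, the octamer read by OCT4, was in 0 (3.21%). TGANTCA was in 7 IRF peaks (25.2% of all), and among peaks away from promoters in 5 of 9 (31.1% of all such peaks), which include 3 of the peaks closed in mESCs inside Irf2. The pattern allows any middle base, as in the TGAATCA of the farther Irf2 intron peak, so these are not counts of AP-1 sites alone. GGAATG, the TEAD site, was in 9 (31.7%).

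The main promoter peaks most like those of the IRF genes were sought over the log2 CPM of the 12 samples, which come from 6 libraries, among at least 15120 genes. Pearson's r, given as a description, was 0.988 between Irf7 and Rab7b, 0.986 between Irf2 and Hnrnpf, 0.983 between Irf8 and Ahsa2, 0.982 between Irf3 and Cbx8 and 0.978 between Irf9 and Gm7030. It was 0.963 between Irf1 and Atp6v0c, 0.911 between Irf5 and Polr2c and 0.869 between Irf4 and Stk17b. Irf4 and Irf5, whose promoters did not pass the test, had the loosest matches. They had 0 and 1 gene at an r of at least 0.9, where Irf2 had 1658. These samples span both cell types, so a shared difference between MEFs and mESCs raises r by itself. The contrast is therefore not a result separate from the test between cell types, and r cannot show a likeness beyond that difference. Each best match is also the highest r among at least 15120 genes.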

How the data were processed

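The authors aligned the OMNI-ATAC-seq reads to GRCm38/mm10, trimmed the 150 bp Illumina reads to 100 bp, down-sampled MEF samples to 60 M and mESC samples to 45 M reads, called peaks with MACS2 and deposited read counts per peak. The narrow-peak files deposited by the authors hold, per summit, a score, a fold ratio over background and −log10 values of p and q. Peaks listed for a cell type needed a score per M of at least 3 in at least 2 samples. Count columns without a platform suffix were taken as Illumina. IRF peaks overlapped a GENCODE M21 gene body extended by 10 kb. A main promoter peak had the highest mean CPM within 1 kb of a start site. CPM was computed from reads in peaks.

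edgeR 4.0.16 (R 4.3.3) fitted all peaks of a table with TMM scaling, filterByExpr and the two-sided quasi-likelihood test, Benjamini-Hochberg adjusted over all peaks (threshold 0.05). Fold changes include the TMM factors, so they can differ slightly from the ratio of CPM means. DESeq2 1.42.0, which the authors used, was an alternative. Others were RLE or fixed library sizes, count filters, fold thresholds, windows, single libraries left out and the other platform's samples. The tests were run on simulated data first, with 200 features changed by 1 on the log2 scale and a fixed noise setting. Between cell types edgeR recovered 81.5% of the changed BGI peaks and 84.5% of the Illumina peaks, and DESeq2 71.5% on BGI. Between platforms edgeR recovered 3% in MEFs and 32.5% in mESCs without the library block, and 95% and 85% with it. Gene lists took the promoter peak per gene, and the genes named in each list were the 2 largest changes in each direction called alike on both platforms, with all 8 IRF genes named. The members and lists were chosen with earlier results of these data known.

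BGI and Illumina samples with the same number come from the same library. Deviations from group means correlated at 0.618 to 0.837 (MEFs) and 0.514 to 0.722 (mESCs) for the same number, and at −0.676 to 0.298 and −0.509 to −0.115 otherwise. The labels name separate samples and the methods biological replicates, but not their animals or cultures, so p-values of fits without the library block measure the spread between these libraries. With the block, p-values measure how far the ratio of the platforms varied from library to library. Depth, 15.9 to 21.7 M reads in peaks per sample, limits the weakest peaks, and reads from PCR carry no molecular identifiers.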

Additional observations from a re-analysis of the deposited data

Results flagged for a closer look

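One IRF peak differed between the platforms in its change between cell types. In the Illumina peak set, the peak 0.9 kb before the start of Irf2, at a promoter that Irf2 shares with Gm16675, held 2.84, 3.03 and 4.87 CPM in MEFs and 4.001, 5.54 and 4.65 CPM in mESCs on Illumina (0.36, SE 0.26, adjusted p = 0.2 by edgeR). With the BGI samples on the same peak the log2 change was 1.17 (adjusted p = 0.000632). The difference between platforms, tested over all 12 samples with the library as a block, was 0.97 (SE 0.23, adjusted p = 0.0321). On Illumina alone, the change also passed without MEF library 4 (0.60, adjusted p = 0.0344). The peak is weak and in the Illumina set alone. This test was added after the data were seen. Groups of 3 libraries were too small for a check of single outlying samples.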

How the results depend on the processing

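Of 756 values of single IRF peaks between mESCs and MEFs under alternatives, 701 kept their direction and side of the threshold, 39 lost and 10 gained the call and 6 changed sign. DESeq2 called 26 BGI and 28 Illumina IRF peaks, with no share computed over all peaks. At a log2 change of at least 1, 13 BGI peaks (3 higher, 10 lower) and 15 Illumina peaks (5 higher, 10 lower) were called. Without extension of the gene bodies, 18 of 22 BGI peaks (2 higher, 16 lower) and 20 of 23 Illumina peaks (3 higher, 17 lower) were called. With 5 kb, 21 of 25 BGI peaks (4 higher, 17 lower) and 23 of 27 Illumina peaks (5 higher, 18 lower) were called. With 25 kb, which takes in more neighbours, 51 of 63 BGI peaks (16 higher, 35 lower, background 84.1%) and 50 of 62 Illumina peaks (16 higher, 34 lower, background 84.5%) were called. Leaving out 1 library at a time gave 21 to 25 IRF peaks on BGI and 26 to 29 on Illumina, 5 to 6 main promoter peaks on BGI and 6 on Illumina, and 5 to 6 gene sums on each. Shares over all peaks or genes were not computed for these fits.

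The cause of the following changes of sign was not tested. With 1 library left out, the Irf3 peak at 1.1 kb ranged from −0.15 to 0.01 and the Irf5 peak at −9.3 kb from −0.02 to 0.18 on BGI, and the Irf5 sum from −0.01 to 0.13 on Illumina. The Irf3 peak at 1.1 kb went from −0.05 to 0.09 at the down-sampled library sizes and to 0.01 without MEF library 1, MEF library 2, mESC library 3 or mESC library 5, and the Irf5 peak at −9.3 kb from 0.10 to −0.02 without mESC library 1, on BGI. The BGI sums of Irf4 went from 0.05 to −0.02 without MEF library 4 and to −0.49 with 25 kb (adjusted p = 1.28e-05 by edgeR), and of Irf5 from −0.07 to 0.05 at the down-sampled sizes. With 25 kb the Irf5 sum on BGI (−0.51, adjusted p = 1.76e-06) and the Irf4 sum on Illumina (−0.50, adjusted p = 6.12e-05) were called with their sign kept. The Illumina sums of Irf5 went from 0.05 to −0.01 without mESC library 1, −0.03 without extension and −0.34 with 25 kb (adjusted p = 0.000536), and of Irf7 from −0.42 to 0.11 with 25 kb (adjusted p = 0.26). At the down-sampled sizes the main promoter peak of Irf1 lost its call on both platforms (−0.17, adjusted p = 0.207, and −0.18, adjusted p = 0.136), that of Irf3 on Illumina (−0.23, adjusted p = 0.0501), and the Irf3 sum on both (−0.06 and −0.09).

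Between BGI and Illumina in MEFs, DESeq2 called 3 IRF peaks with or without the replicate block (background 14.6% and 12.8%), 3 of them lower on BGI, and edgeR with the replicate block called 5 (1 higher, 4 lower). In mESCs RLE size factors left 0 (0 lower, 5 at an unadjusted p under 0.05 with TMM) and moved the Irf1 peak at −7.4 kb to 0.00 and the Irf5 peak at 2.7 kb to 0.01, and the replicate block gave 5, 5 of them lower. With 1 library left out, 0 to 2 were called in MEFs and 0 to 1 in mESCs (0 higher), and with the block 3 to 6 and 3 to 5, again 0 higher on BGI. In the central 300 bases GAAANNGAAA was in 1 BGI and 2 Illumina IRF peaks and GGGNNTTTCC in 2 Illumina peaks. No paired analysis was possible between mESCs and MEFs because they share only library number 1. Depth limits peaks near 1 CPM, where mESC values rest on as few as 2 reads.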
